A study of Bos indicus with 11 samples.

Results

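Guidance genes are the semaphorins and their plexin and neuropilin receptors, the ephrins and Eph receptors, the slits and Robo receptors, and the netrins and UNC5 receptors. The members were picked by gene symbol alone, but the families and lists were chosen with earlier results of these data known. Of the 24616 rows of the deposited table, 60 carry such a symbol, and 57 of these had a mean of at least 5 normalized counts over the 11 cows and are described here among the 15081 genes tested. The other 3 rows were ROBO3 (mean 2.11), NTN5 (mean 0.977) and EPHA8 (mean 0.907), and EPHA8 was at 0 in the 6 P cows. A further 2 rows carry several symbols at once, among them UNC5B and EPHA5, and were not counted as members.

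The measurements come from biopsies of endometrium, the inner lining of the uterus, taken on day 6 after artificial insemination (AI). The donors were healthy multiparous Nelore cows, a Bos indicus beef breed, whose estrus was synchronized and all of which were inseminated. Pregnancy was diagnosed on day 30. Per the study, 6 pregnant (P) and 6 non-pregnant (NP) cows were then chosen in retrospect from a larger inseminated group. The choice required plasma progesterone on day 6 within a narrow range and an ovulation seen by ultrasound soon after AI. Of the NP samples, 1 did not map correctly to the genome and was left out. This left 6 P and 5 NP cows, and each cow is 1 replicate. The biopsy came from the horn opposite to the corpus luteum, and it holds epithelium, stroma, vessels, immune cells and at times muscle. The NP cows received the same treatment as the P cows, so no group without insemination was compared.

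Guidance molecules were named for their steering of growing axons, and the same ligands and receptors also steer vessels, epithelial sheets and immune cells. Semaphorins are secreted or membrane-bound ligands that act through plexins, and the secreted ones mostly need a neuropilin as coreceptor. Ephrins are held at the cell surface and signal in both directions when they meet an Eph receptor tyrosine kinase on a neighbouring cell. Slits are secreted ligands that repel cells through Robo receptors, whereas netrins attract or repel through DCC, neogenin and the UNC5 receptors.

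Between 9290949 and 13569085 reads per cow were counted on genes, and 1 read was worth 0.784 to 1.14 normalized counts. Cow P617 was grouped by its label, pregnant, although a supplement of the study calls it non-pregnant. This cow stood apart with an epithelial marker score of 6.97 against 8.73 to 10.46 in the other P cows. Cows P617 and P1541 also had the highest smooth muscle scores, 12.62 and 12.50. Values of guidance genes without both cows are given where a group difference, or a rise or fall with the smooth muscle score, no longer passed without them. For the epithelial score, where no call was left without both, values without P617 alone are given for some genes. Levels were not compared between genes, because gene lengths were not used here.

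More guidance genes were higher in the NP cows than in the P cows. With limma, no guidance gene had an adjusted p-value under 0.1 (0 of 57, as 0% of all genes tested), so none is called changed in that test. Between the P and NP cows, 13 of 57 guidance genes (22.8%) had an unadjusted p-value under 0.05, against 7.84% of all genes. Of these, 12 were higher in NP (21.1%, against 5.49% of all genes) and 1, SLIT2, was higher in P (1.75%, against 2.35% of all genes). The median log2 fold change, always NP over P, was 0.19 over the 57 guidance genes and 0.0018 over all genes tested. It was positive for 40 guidance genes (70.2%), against 50.2% of all genes.

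DESeq2 on the recovered reads called 3 of 57 guidance genes at an adjusted p-value under 0.1 (5.26%, against 1.33% of all genes), namely SEMA5A, PLXND1 and ROBO1. The edgeR quasi-likelihood test called 0 (0% of all genes) and had 11 guidance genes (19.3%) at an unadjusted p-value under 0.05, against 7.63% of all genes. In 2 guidance genes, SEMA5A and PLXND1, each NP cow lay above each P cow (3.51%, against 0.855% of all genes). The reverse, each P cow above each NP cow, was seen in 0 guidance genes and in 0.239% of all genes. Genes are not independent of each other, and these shares describe the lists.

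**Figure D1:**
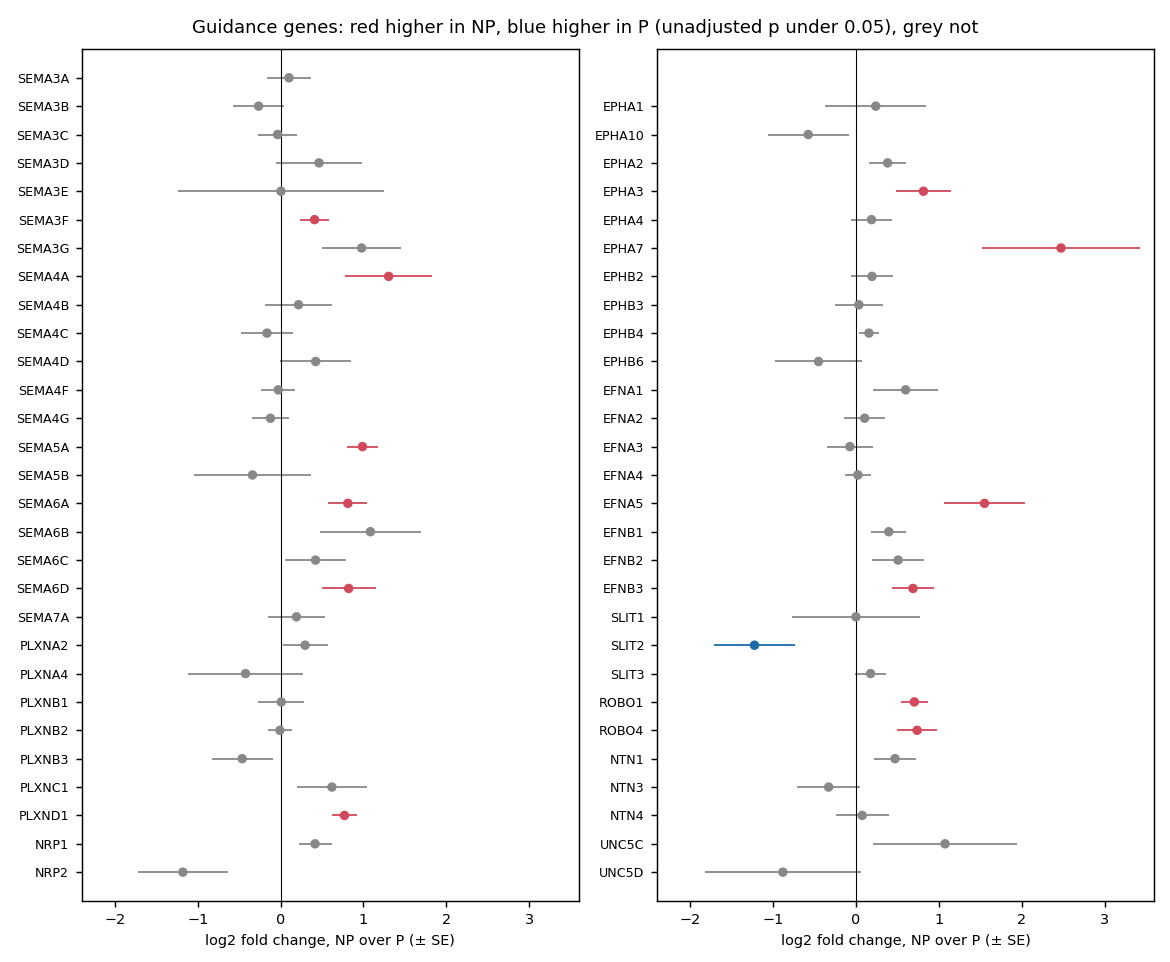
Log2 fold change, NP over P, of the 57 guidance genes (points) with its standard error (lines), in the order of their families. Red marks the 12 genes higher in NP and blue the gene higher in P with limma (unadjusted p-value under 0.05), and grey the other 44.

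Among the 20 semaphorins, 14 had a positive log2 fold change and 5 of these had an unadjusted p-value under 0.05: SEMA5A, SEMA6A, SEMA6D, SEMA4A and SEMA3F. SEMA5A (ENSBTAG00000005021) is a membrane-bound semaphorin with thrombospondin repeats that binds plexin-B3. Its normalized count was 629 in the lowest P cow, with a median of 976 and a highest value of 1268. The NP cows had 2123 (NP238), 1684 (NP2541), 2246 (NP2810), 1873 (NP638) and 1489 (NP856). The groups did not overlap. The means were 963 ± 231 in P and 1883 ± 310 in NP (± SD here and in all that follows, over 6 P and 5 NP cows). SEMA5A was 1.98-fold higher in NP, with a log2 fold change of 0.99 (SE 0.182, unadjusted p = 1.72e-04). The adjusted p-value was 0.216 in limma and 9.63e-04 in DESeq2, and the log2 fold change stayed between 0.87 and 1.07 whichever cow was left out.

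SEMA6A and SEMA6D are membrane-bound semaphorins that bind plexins of the A class. SEMA6A ranged from 101 to 273 in the P cows (median 185), and the NP cows had 291, 409, 273, 326 and 251 (in the order NP238, NP2541, NP2810, NP638 and NP856, which is kept from here on). Only the highest P cow reached into the range of the NP cows. The log2 fold change of SEMA6A was 0.81 (SE 0.237, unadjusted p = 0.00525, adjusted p = 0.364 in limma). SEMA6D ranged from 137 to 569 in P (median 253), and the NP cows had 419, 356, 643, 489 and 336. All P cows but the highest lay below the NP cows. The log2 fold change of SEMA6D was 0.82 (SE 0.327, unadjusted p = 0.0281, adjusted p = 0.554 in limma), and its p-value was 0.05 or more without P1631, P2396, NP2810 or NP638 (highest 0.0752, without NP2810).

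SEMA4A, a membrane-bound semaphorin known from immune cells and from vessels, ranged from 52.0 to 428 in P (median 268). The NP cows had 601, 397, 497, 340 and 540, so that the upper P cows overlapped with the lower NP cows. Its log2 fold change was 1.30 (SE 0.527, unadjusted p = 0.0298, adjusted p = 0.563 in limma), and the p-value was 0.05 or more without P1541, NP238, NP2810 or NP856 (highest 0.0645, without P1541). Without both P617 and P1541 the log2 fold change of SEMA4A was 0.53 (unadjusted p = 0.0537). SEMA3F, a secreted ligand of neuropilin-2, ranged from 398 to 763 in P (median 646). The NP cows lay close together at 727, 768, 758, 726 and 861, within and above the upper end of the P range. The log2 fold change was 0.41 (SE 0.179, unadjusted p = 0.0418, adjusted p = 0.608 in limma). It was the least firm of the 13, since the p-value was below 0.05 only without P1631, P1753 or P2396 among the fits that leave out a cow (highest 0.0905, without NP856). Without both P617 and P1541 the log2 fold change of SEMA3F was 0.16 (unadjusted p = 0.138).

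The other 15 semaphorins did not pass an unadjusted p-value of 0.05. SEMA3G came closest (log2 fold change 0.98, SE 0.472, unadjusted p = 0.0615 in limma), and SEMA6B had a positive value as large with a wider error (1.08, SE 0.614). SEMA3E, the secreted ligand of plexin-D1, varied most among cows of the semaphorins, from 0 to 152 in P and from 7.14 to 72.9 in NP. SEMA4C, a ligand of plexin-B2, ranged from 1041 to 3524 in P, where P617 was highest, and from 1117 to 2049 in NP. SEMA3A, SEMA3D, SEMA4B, SEMA4D, SEMA6C and SEMA7A had log2 fold changes between 0.10 (SEMA3A) and 0.46 (SEMA3D). The values of SEMA3B, SEMA3C, SEMA4F, SEMA4G and SEMA5B lay between -0.34 (SEMA5B) and -0.03 (SEMA4F).

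**Figure D2:**
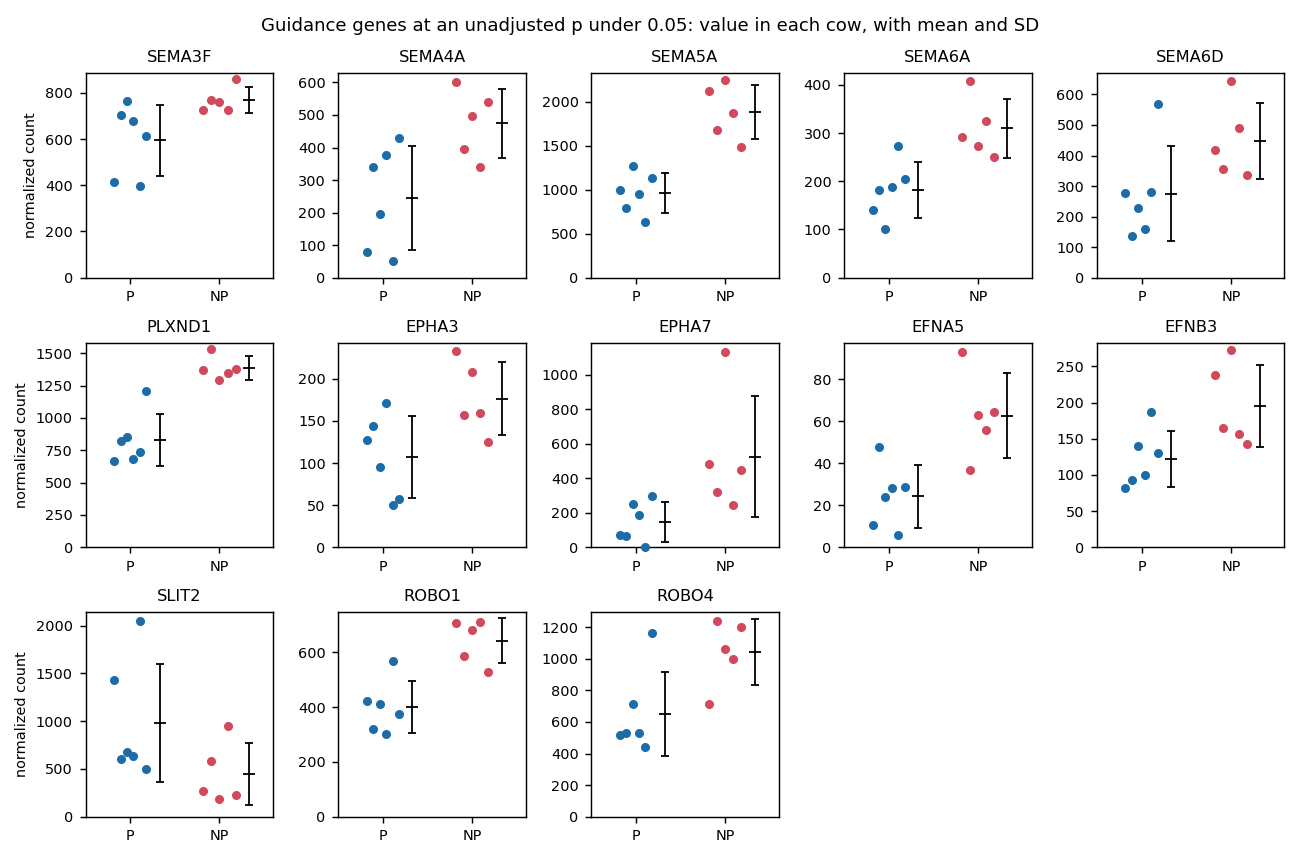
Normalized count in each P cow (blue) and each NP cow (red) of the 13 guidance genes at an unadjusted p-value under 0.05, with the mean and SD as black bars and each panel on its own axis from 0. The groups are apart in SEMA5A and PLXND1, and they overlap in the other 11 genes.

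Of the 7 plexins, PLXND1 (ENSBTAG00000001814) had an unadjusted p-value under 0.05. Plexin-D1 is the receptor of SEMA3E and is best known from endothelial cells. It ranged from 666 to 1208 in the P cows (median 777), with P904 highest, and the NP cows had 1374, 1535, 1289, 1343 and 1381. The groups did not overlap, and the NP cows lay close together (827 ± 200 in P and 1385 ± 91.7 in NP). PLXND1 was 1.71-fold higher in NP, with a log2 fold change of 0.77 (SE 0.146, unadjusted p = 2.19e-04). The adjusted p-value was 0.228 in limma and 0.00407 in DESeq2, and leaving out each cow gave values from 0.71 to 0.89. Its ligand SEMA3E had a log2 fold change of 0.0037 with an SE of 1.24, too wide to place it in either direction.

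PLXNB2, the plexin that SEMA4C binds, was among the steadiest guidance genes, with 3356 to 5138 in P and 3320 to 4820 in NP and a log2 fold change of -0.0092 (SE 0.142). PLXNA4 had the widest spread of the plexins, from 10.5 to 132 in P and from 13.3 to 122 in NP. PLXNB3, the receptor of SEMA5A, had a log2 fold change of -0.46 (SE 0.368, unadjusted p = 0.233). PLXNA2 (0.30), PLXNB1 (0.0076) and PLXNC1 (0.62) did not pass either. PLXNB1 is the receptor of SEMA4D, and PLXNC1 that of SEMA7A.

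The neuropilins had opposite signs, and neither passed. NRP1, the coreceptor of SEMA3A and of vascular endothelial growth factor, ranged from 386 to 769 in P and from 487 to 909 in NP (log2 fold change 0.42, SE 0.199, unadjusted p = 0.0590). NRP2, the coreceptor of SEMA3F, spread widely within both groups, from 497 to 2504 in P and from 196 to 1608 in NP (log2 fold change -1.18, SE 0.546, unadjusted p = 0.0523). How NRP2 followed the muscle markers of the biopsies is described further on.

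Of the 8 ephrins, 7 had a positive log2 fold change, and EFNA5 and EFNB3 had an unadjusted p-value under 0.05. EFNA5, which is anchored in the membrane by a lipid and binds several EphA receptors, ranged from 5.65 to 48.0 in P (median 26.1). The NP cows had 93.1, 36.9, 63.2, 55.8 and 64.5, and the highest P cow lay above the lowest NP cow. EFNA5 was 2.93-fold higher in NP, with a log2 fold change of 1.55 (SE 0.485, unadjusted p = 0.0080, adjusted p = 0.410 in limma). EFNB3, a transmembrane ephrin, ranged from 81.3 to 186 in P (median 115), and the NP cows had 237.7, 165, 273, 156 and 143. Its groups overlapped at the lower NP cows, and the log2 fold change was 0.69 (SE 0.253, unadjusted p = 0.0192, adjusted p = 0.504 in limma). The p-value of EFNB3 was above 0.05 without NP238 or NP2810 (highest 0.0546, without NP2810).

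The other 6 ephrins were EFNA1, EFNA2, EFNA3, EFNA4, EFNB1 and EFNB2. EFNA1 ranged from 565 to 3013 in P and from 1381 to 3244 in NP, and P617 was the lowest cow (log2 fold change 0.60, SE 0.391). EFNB1 (0.39, unadjusted p = 0.0879) and EFNB2 (0.51, unadjusted p = 0.138) were positive, and EFNA4 was near 0 (0.02, SE 0.158). EFNB2 is known as a marker of arteries and its receptor EPHB4 as a marker of veins.

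The Eph receptors EPHA3 and EPHA7, both of which bind EFNA5, were higher in NP at an unadjusted p-value under 0.05. EPHA7 had the largest fold change of the 57 genes. It ranged from 3.39 to 297 in P (median 129), with P617 lowest and far below the next cow at 67.4, and the NP cows had 482, 321, 1128, 248 and 448. The groups overlapped at NP638. EPHA7 was 5.55-fold higher in NP on the log2(value + 1) scale (log2 fold change 2.47, SE 0.948, unadjusted p = 0.0234, adjusted p = 0.522 in limma). On the recovered reads, its log2 fold change was smaller, 1.85 in both DESeq2 and edgeR. In limma, the p-value of EPHA7 was 0.0614 without NP2810, and the log2 fold change dropped to 1.37 without P617 and P1541 (unadjusted p = 0.0194). EPHA3 ranged from 49.7 to 172 in P (median 111), and the NP cows had 234, 157, 208, 159 and 125. The log2 fold change of EPHA3 was 0.81 (SE 0.334, unadjusted p = 0.0320, adjusted p = 0.566 in limma), and the p-value was 0.05 or more without P617, P904, P1753, NP238 or NP2810 (highest 0.0788, without NP238). Without both P617 and P1541 the log2 fold change of EPHA3 was 0.67 (unadjusted p = 0.0621).

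EPHA1, EPHA2, EPHA4, EPHA10, EPHB2, EPHB3, EPHB4 and EPHB6 did not pass. EPHB4 was steady, with 748 to 1092 in P and 799 to 1051 in NP (log2 fold change 0.16, SE 0.121). EPHA10 (-0.58) and EPHB6 (-0.45), whose kinase domains are thought to be inactive, were the only Eph receptors with a negative log2 fold change. EPHA1 (0.24), EPHA2 (0.38), EPHA4 (0.19), EPHB2 (0.19) and EPHB3 (0.03) lay above 0.

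The slit ligand SLIT2 and the Robo receptors pointed in opposite directions. ROBO1 (ENSBTAG00000009851), the receptor of slits in many cell types, ranged from 304 to 569 in P (median 394), with P617 highest, and the NP cows had 707, 587, 682, 712 and 528. Only P617 lay above the lowest NP cow. The means were 400 ± 95.5 in P and 643 ± 81.9 in NP, and the log2 fold change was 0.70 (SE 0.164, unadjusted p = 0.00113). The adjusted p-value of ROBO1 was 0.264 in limma and 0.0281 in DESeq2.

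ROBO4, the Robo receptor of endothelial cells, ranged from 439 to 1161 in P (median 529), with P904 highest. The NP cows had 711, 1238, 1059, 997 and 1201, so that P904 lay among them and P1753, at 715, lay just above NP238. The log2 fold change was 0.74 (SE 0.241, unadjusted p = 0.0102, adjusted p = 0.436 in limma). Without P904, SEMA5A, PLXND1 and ROBO4 passed an adjusted p-value of 0.1 in limma, which makes 3 guidance genes against 0 with all cows, while 1.13% of all genes passed in that fit.

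SLIT2 ranged from 495 to 2044 in P (median 655), with P617 highest, and the NP cows had 269, 588, 187, 949 and 223. The groups overlapped, and 3 NP cows lay below all P cows. SLIT2 was 2.34-fold higher in P (log2 fold change -1.23, SE 0.485, unadjusted p = 0.0272, adjusted p = 0.548 in limma). The p-value was 0.05 or more without P617, P1541, NP238, NP2810 or NP856 (highest 0.0759, without NP2810). Without both P617 and P1541 the log2 fold change of SLIT2 was -0.72 (unadjusted p = 0.125). SLIT1, at 0 to 14.7 in P and 2.03 to 12.9 in NP, and SLIT3 (log2 fold change 0.18, SE 0.188) did not pass.

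No netrin and no UNC5 receptor passed an unadjusted p-value of 0.05. NTN1 ranged from 104 to 284 in P and from 182 to 317 in NP (log2 fold change 0.47, SE 0.250, unadjusted p = 0.0844). NTN3 ranged from 15.8 to 62.9 in P and from 20.4 to 49.4 in NP, and NTN4, a netrin of basement membranes, had a log2 fold change of 0.07. UNC5 receptors relay repulsion by netrins, and the members UNC5C and UNC5D were low. UNC5B, whose row carries several symbols and was not counted as a member, was not low. It ranged from 137 to 196 in P and from 147 to 356 in NP. UNC5C ranged from 1.14 to 32.8 in P and from 6.27 to 70.3 in NP, and UNC5D from 0 to 30.5 in P and from 0 to 10.1 in NP.

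Other genes of the guidance pathways were taken from a list of 79 coreceptors, further ligands and intracellular mediators, of which 70 were found by symbol and 68 were tested. At an unadjusted p-value under 0.05, 8 of the 68 (11.8%) differed between the groups, against 7.84% of all genes, and 6 of them were higher in NP (8.82%, against 5.49% of all genes). SH2D3C, an adaptor of Eph receptors, ranged from 131 to 218 in P (median 153), and the NP cows had 280, 266, 270, 283 and 236. Its groups did not overlap (log2 fold change 0.77, SE 0.151, unadjusted p = 3.01e-04), with an adjusted p-value of 0.238 in limma and 9.63e-04 in DESeq2. LRRC4C, the membrane-bound ligand of netrin-G1, ranged from 2.01 to 22.03 in P (median 9.51), and the NP cows had 45.5, 80.8, 34.7, 35.5 and 25.8. These groups did not overlap either (log2 fold change 2.34, SE 0.559, unadjusted p = 0.00137), and the adjusted p-value was 0.264 in limma and 0.0217 in DESeq2. Of the 68 genes, 2 lay apart and higher in NP (2.94%, against 0.855% of all genes). DESeq2 called 2 at an adjusted p-value under 0.1 (2.94%, against 1.33% of all genes).

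ARHGEF15 (log2 fold change 0.66) and VAV2 (0.45), exchange factors that act below Eph receptors, were also higher in NP, as were TREM2 (1.57), a macrophage receptor that can join plexin-A1, and TIMD4 (1.47), a phosphatidylserine receptor. Both of the latter rest on few reads. TREM2 was at 1.13 to 13.7 in P and 9.41 to 24.5 in NP, and TIMD4 at 0 to 12.5 in P and 6.27 to 34.7 in NP. The unadjusted p-value of TIMD4 in limma was 0.0499, and 0.131 without NP2810. NTNG2 (-0.67), a membrane-anchored netrin-G, and ANKS1A (-0.48), an Eph adaptor, were higher in P. LRRC4C is among the genes that the study listed from these cows, so it is no independent evidence. The study ran DESeq2 on the same cows, so SH2D3C and the guidance genes that DESeq2 called are no independent evidence either. The median log2 fold change of the 68 genes was 0.017.

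Markers of vessels also moved with the groups. The mean log2(normalized count + 1) of 10 endothelial markers was 8.60 to 10.17 in P and 9.57 to 10.39 in NP, and 9 of the 10 had an unadjusted p-value under 0.05, all higher in NP. The endothelial score was 0.82 higher in NP (two-sided exact permutation test over the 462 splits of the cows, p = 0.0173, adjusted p = 0.0606 over 7 marker lists). For 5 pericyte markers, of which 3 had an unadjusted p-value under 0.05, the score was 8.61 to 9.86 in P and 9.92 to 10.21 in NP. The pericyte groups did not overlap, and the score was 0.72 higher in NP (exact permutation test, p = 0.00433, adjusted p = 0.0303). None of these markers was at 0 in any cow. In a biopsy, more cells of a type and more RNA per cell cannot be told apart.

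**Figure D3:**
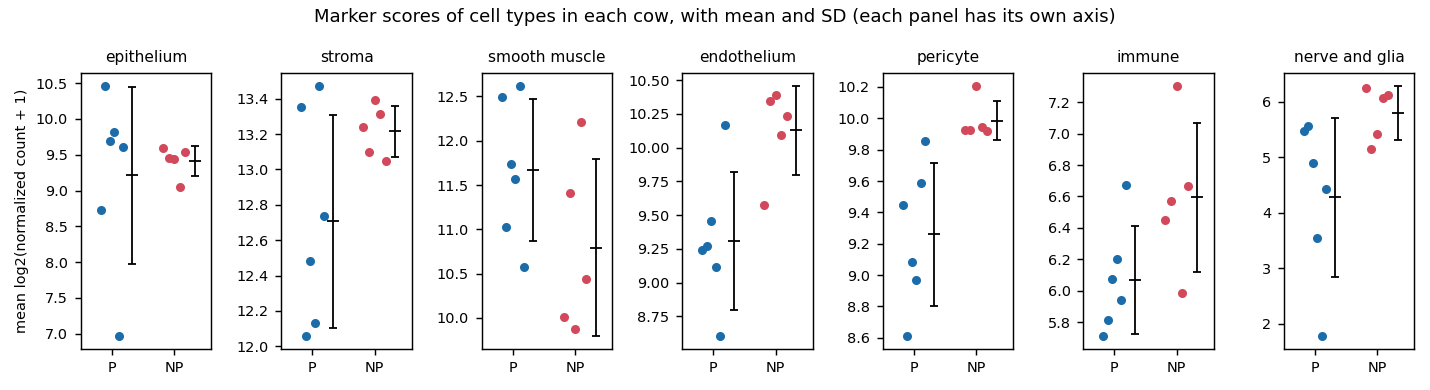
Marker score, the mean log2(normalized count + 1) over a cell type's markers, in each P cow (blue) and NP cow (red), with the mean and SD as black bars and each panel on its own axis. The pericyte score is the only one of the 7 in which the groups do not overlap, and P617 is the lowest point of the epithelial panel at 6.97.

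The nerve and glia score was 1.52 higher in NP (exact permutation test, p = 0.0303, adjusted p = 0.0707), at 1.78 to 5.56 in P and 5.14 to 6.25 in NP. It rests on 5 markers, 4 of which were at 0 in at least 1 cow. The immune score was 0.52 higher in NP (exact permutation test, p = 0.0584, adjusted p = 0.102) over 10 markers, at 5.71 to 6.67 in P and 5.98 to 7.30 in NP. For 8 stromal markers the score was 12.06 to 13.47 in P and 13.05 to 13.39 in NP (exact permutation test, p = 0.104). Over 14 epithelial markers it was 6.97 to 10.46 in P and 9.04 to 9.59 in NP (exact permutation test, p = 0.818). Smooth muscle, with 9 markers, was at 10.57 to 12.62 in P and 9.88 to 12.22 in NP (exact permutation test, p = 0.139).

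With the endothelial score as a covariate in limma, a fit added after the data were seen, 5 of the 13 guidance genes kept an unadjusted p-value under 0.05: SEMA5A, SEMA6A, PLXND1, EFNB3 and ROBO1. The log2 fold change of SEMA5A was then 0.70, that of PLXND1 0.45 and that of ROBO1 0.92. ROBO4 had a log2 fold change of -0.03 in this fit, against 0.74 without the covariate, and EPHA7 one of 0.20, against 2.47. With the pericyte score, which separates the groups by itself, 6 of the 13 kept an unadjusted p-value under 0.05. SEMA5A (0.89) and PLXND1 (0.60) had smaller log2 fold changes than without it, whereas those of SEMA3F (0.77), SEMA4A (1.94), EPHA3 (1.61) and EFNA5 (2.45) were larger. ROBO1 (0.39) no longer passed, and SEMA6D turned to -0.31. A further 5 guidance genes passed that level with this covariate and not without it, namely SEMA3C, SEMA3E, SEMA3G, PLXNC1 and EFNA1, all higher in NP. The share of all genes at that level was 11.8% with the pericyte score and 3.18% with the endothelial score. The covariate and the group share much of their variation, and the part of the vessels in the fold changes cannot be told apart from the group.

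**Figure D4:**
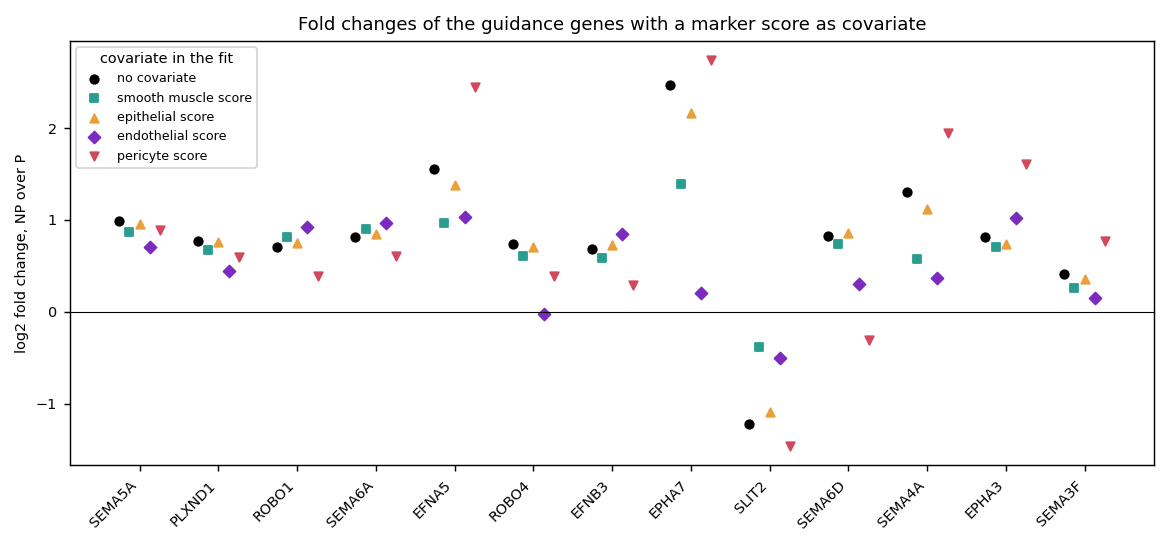
Log2 fold change, NP over P, of the 13 guidance genes in limma without a covariate (black circles) and with the smooth muscle, epithelial, endothelial or pericyte score as covariate. SEMA5A stays between 0.70 and 0.99 in these fits, and ROBO4 moves from 0.74 to -0.03 with the endothelial score.

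Apart from the groups, several guidance genes followed the smooth muscle score. In a limma model with the group and the score, 6 guidance genes rose with the score at an adjusted p-value under 0.1 (10.5%, against 3.72% of all genes) and 1 fell (1.75%, against 0.902% of all genes). NRP2 rose by 1.09 log2 units per log2 unit of the score (SE 0.107, adjusted p = 2.97e-04 in limma), and SLIT2 by 0.95 (SE 0.107, adjusted p = 6.49e-04). UNC5D (1.66, adjusted p = 0.0215 in limma), PLXNB3 (0.60), SEMA4C (0.50) and SEMA5B (1.10) rose as well, and SEMA4A fell by 0.83. UNC5D had a mean of 5.02, just above the filter of 5, with 30.5 in P617 and 0 in P904, NP238, NP2810 and NP856. Its slope rests on few reads. Without P617 and P1541, the cows with the highest scores, NRP2 rose by 1.12 (adjusted p = 0.00261 in limma) and SLIT2 by 0.86 (adjusted p = 0.00859).

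UNC5D also passed without those 2 cows (adjusted p = 0.0340 in limma), and PLXNA4 was added (adjusted p = 0.0852), which makes 4 guidance genes, while 1.94% of all genes followed the score in that fit. UNC5D was at 0 to 10.1 normalized counts in the remaining cows, near the floor. The calls of PLXNB3, SEMA4C, SEMA5B and SEMA4A were lost without P617 and P1541. Their slopes were then 0.59 (adjusted p = 0.286 in limma), 0.26 (0.203), 1.01 (0.370) and -0.37 (0.271). NRP2 was highest in P1541 and SLIT2 in P617, and in both genes NP638, the NP cow with the highest smooth muscle score (12.22), had the highest value of its group. With the smooth muscle score as covariate, the log2 fold change of SLIT2 was -0.39, against -1.23 without it, and its unadjusted p-value no longer lay under 0.05. SEMA5A, SEMA6A, PLXND1, EFNA5, ROBO1 and ROBO4 kept an unadjusted p-value under 0.05 in that fit.

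**Figure D5:**
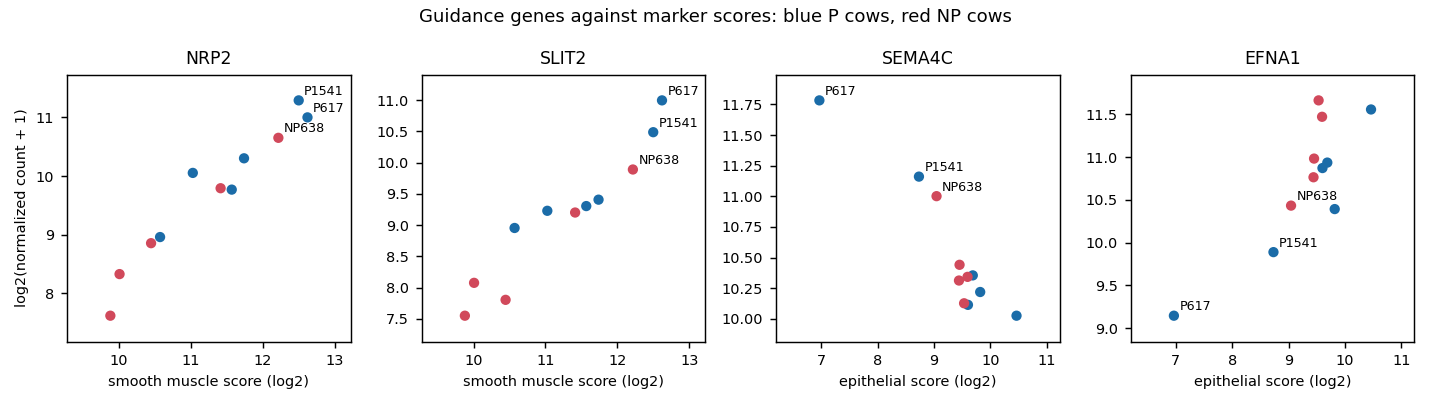
Log2(normalized count + 1) of NRP2 and SLIT2 against the smooth muscle score, and of SEMA4C and EFNA1 against the epithelial score, with a point for each P cow (blue) and NP cow (red). NRP2 and SLIT2 rise over the whole range of the smooth muscle score, whereas P617, at an epithelial score of 6.97, stands apart in the other panels.

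The epithelial score was followed by more guidance genes, of which 18 rose with it (31.6%, against 23.5% of all genes) and 11 fell (19.3%, against 21.4% of all genes). Most of these calls were lost without P617. SEMA3F, SEMA4A, PLXNB1, EFNA1 and EFNA5 still rose and SEMA4C still fell, which makes 6 guidance genes against 29 with it, while the share of all genes called went from 45% to 11.8%. Without P617 and P1541 there were 0 guidance genes and 0% of all genes. The slopes themselves kept their sign without P617 in all 29 guidance genes, and they were at least as large in 15 and smaller in 14. EFNA1 rose by 0.68 log2 units per unit of the score with all cows (SE 0.114, adjusted p = 9.96e-04 in limma) and by 1.02 without P617 (adjusted p = 0.0361). SEMA4C fell by 0.57 with all cows (SE 0.0745, adjusted p = 2.38e-04 in limma) and by 0.75 without P617 (adjusted p = 0.0290).

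EPHA1 rose by 1.11 (adjusted p = 3.33e-04 in limma) and EPHB3 fell by 0.52 (adjusted p = 3.18e-04) with all cows, and neither passed without P617 (slopes 0.63 and -0.32, adjusted p = 0.216 and 0.206). Slopes that lost the call and became smaller without P617 were the rises of SEMA3E, SEMA3G, SEMA6B, PLXNA2, EPHA3, EPHA7 and EFNB2 and the falls of SEMA4F, EPHB2, EFNA2, EFNB1 and UNC5D. EPHA7 moved furthest among these, from 1.52 to 0.25. Slopes that lost the call and were at least as large without P617 were the rises of SEMA3D, SEMA4B, SEMA4D, SEMA4G and EPHA2 and the falls of EPHA10, SLIT2, ROBO1 and UNC5C. SEMA4B, for instance, went from 0.52 to 1.07 (adjusted p = 0.103 in limma) and SLIT2 from -0.67 to -1.05 (adjusted p = 0.179). P617 was the lowest cow in 27 of the 57 guidance genes (47.4%), against 27.3% of all genes tested, and the highest in 10 (17.5%), against 26% of all genes.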

How the data were processed

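Per the study's methods and the submitters' processing notes, the authors mapped paired-end reads (CASAVA 1.8.2) to the UMD 3.1 assembly with Bowtie2 2.1.0, counted them per gene with HTSeq 0.5.4p2 and divided by DESeq2 1.12.1 size factors. The annotation and the use of strand in counting are not given in the sources used here, so overlapping genes are uncertain. The authors deposited the resulting normalized counts (a signal with no values below 0) of 11 cows.

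All values were whole multiples of 1 read (100% within 0.05 reads), and reads were recovered. The main test was limma 3.58.1 (lmFit, eBayes with a trend, R 4.3.3) on log2(value + 1), over 15081 genes with a mean of at least 5. Benjamini-Hochberg adjustment was applied at 0.1. The added 1 can shrink the change of genes near the floor. In the 13 guidance genes at an unadjusted p-value under 0.05, however, limma gave log2 fold changes larger in size than DESeq2 did (SEMA4A 1.30 against 0.95). edgeR 4.0.16, DESeq2 1.42.0 and limma-voom on the reads, pseudocounts, filters, TMM, covariates and left-out cows were alternatives. Scripts were tested on simulated data. Scores are means of log2(value + 1) over marker lists. The smallest permutation p-value is 0.00216. Columns without a sample numbered 0.

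Members and lists were chosen with earlier results of these data known. Each member is named. Those at an unadjusted p-value under 0.05, called by DESeq2 or without overlap are given in full, with ranges for the member of each family with the highest mean and with the largest SD, and partner genes are named by the same rule. Each cow is 1 library. Sequences and coordinates were not used here.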

Additional observations from a re-analysis of the deposited data

Results flagged for a closer look

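In 10 of the 114 groups examined (57 guidance genes in P and in NP), the highest or lowest cow lay apart from the others of its group by more than a common criterion for outliers allows. Chance alone gives about 1 in 20 groups. The same share over all genes was not computed, so the count is not read as particular to the guidance genes. In the P cows, P617 was lowest for EPHA7 at 3.39 normalized counts (others 67.4 to 297) and highest for EPHB3 at 883 (others 241 to 392) and for EFNA2 at 154 (others 69.1 to 87.6). P2396 was lowest for SEMA7A at 35.9 (others 65.8 to 83.6), P1753 highest for EPHB4 at 1092 (others 748 to 842) and P1541 highest for SLIT3 at 784 (others 399 to 472). In the NP cows, NP2810 was lowest for SEMA3B at 242.6 (others 457 to 551) and highest for UNC5C at 70.3 (others 6.27 to 11.8). NP238 was lowest for NRP1 at 486.5 (others 781 to 909), and NP856 was lowest for EFNB1 at 237.7 (others 367 to 415). Of the 13 guidance genes at an unadjusted p-value under 0.05, only EPHA7 is among these.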

How the results depend on the processing

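Over 13 guidance genes and all alternatives, 362 of 364 log2 fold changes kept their sign. ROBO4 was -0.0264 with the endothelial score as covariate and SEMA6D -0.3098 with the pericyte score. Guidance genes at an adjusted p under 0.1, 0 in limma, numbered 3 with DESeq2, 1 (ROBO1) without P617 and P1541, 4 with the epithelial score and 21 with the stromal score, and 0 to 3 when each cow was left out. At an unadjusted p under 0.05, 13 guidance genes became 24 with the stromal score, 6 with the smooth muscle score, 6 with the endothelial, 4 with the immune and 7 with the nerve and glia score, and 6 (without NP2810) to 16 (without P904) when each cow was left out. The stromal score also gave 36.0% of all genes an unadjusted p under 0.05, and 29.8% an adjusted p under 0.1. For the other fits the share of all genes is not given in this section, so their counts are not read as particular to the guidance genes. Leaving out P617 and P1541 together added EPHB2, EPHB3, EFNB1 and UNC5C, higher in NP, and EPHA1, higher in P, at that unadjusted level. EPHA1 thereby changed sign, with a log2 fold change of -0.55 (limma, unadjusted p = 0.0422) against 0.24 with all cows. Partner genes numbered 28 with the stromal score and 4 with the endothelial or immune score, against 8, and 6 to 9 without a cow. The median was 0.343 with the pericyte score, against 0.193, and 0.172 to 0.313 without a cow. Guidance genes without overlap numbered 2 to 5 without a cow (5 without P617, 4 without NP638) and 8 without P617 and P1541, all higher in NP. The share of all genes that lay apart and higher in NP also grew, from 0.855% to 1.37%, 1.45% and 2.49% in these 3 settings. Those following the smooth muscle score, 7 with all cows, numbered 3 (without P1541, P904, NP638 or NP856) to 15 (without NP2810, where 12.6% of all genes followed it) and 4 without P617 and P1541. Those following the epithelial score, 29 with all cows, numbered 6 (without P617) to 31 and 0 without P617 and P1541. The score differences, NP minus P, ranged without a cow from -0.2473 (without P617) to 0.4524 for epithelium, 0.381 to 0.664 for stroma, -1.23 to -0.650 for smooth muscle, 0.347 to 0.678 for immune cells and 1.02 to 1.78 for nerve and glia. The nerve and glia score passed an exact permutation p of 0.05 with all cows and not without NP238, NP2810, NP638 or NP856. The cause of these changes was not tested. No paired analysis was possible because the cows share no numbers between the groups. Depth limits genes such as SLIT1, UNC5C, UNC5D, TREM2 and TIMD4, which rest on few reads per cow.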
